A study of Danio rerio with 6 samples.

Results

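The ERbeta2 morpholino was compared with no injection in zebrafish embryos, over 4 of the 6 arrays of the series. All arrays hold total RNA of whole Danio rerio embryos taken at 72 hours post fertilization, from eggs of several aquaria that were pooled and raised at 28 °C. The 2 ERbeta2 MO arrays come from eggs injected until they had 4 cells with 15 uM of a morpholino named for the estrogen receptor ERbeta2, and the 2 uninjected arrays from eggs that received nothing. The remaining 2 arrays, coMO, come from eggs injected at 15 uM with a second morpholino that the labels give only by that short name, and their values are given beside those of the groups compared. No strain, mutant allele or embryo number is stated in the labels, and each pool of embryos, called a biological replicate there, gave 1 array. All 15502 probe sets that are not array controls, of 15617 in the table, belong to the comparison. Of these, 11626 with a mean signal of at least 72.8 over all 6 arrays were tested. A probe set that was high in only 1 group could pass this filter through that group.

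Estrogen receptors are nuclear receptors: a ligand-bound receptor binds DNA and changes transcription of nearby genes. Morpholinos are antisense oligomers that block translation or splicing of an mRNA for the first days of development, so the targeted mRNA itself need not fall. At the age sampled, the zebrafish embryo is hatching. Its photoreceptors are maturing, its liver and exocrine pancreas have begun to make their products, and yolk lipids still feed it. The series title names the neuromasts, the sense organs of the lateral line.

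Values are MAS5 signals, which summarise the probes of 1 probe set on 1 array on a linear scale. A log2 change is the difference in log2(signal + 32) between the means of the ERbeta2 MO and uninjected arrays. It is given with its standard error (SE) and with the Benjamini-Hochberg adjusted p of limma over all tested probe sets, and a probe set was called below an adjusted p of 0.05. Where a gene has several probe sets, the one with the highest mean signal stands for it. In each list of signals the value of replicate 1 comes first. The table holds no detection calls, so the lowest signals cannot be separated from background.

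The receptor genes gave low signals in every group. The gene table used here lists ERbeta2 as a synonym of esr2a. Esr2a had signals of 70.9 and 94.9 with ERbeta2 MO and of 51.8 and 89.6 without injection, beside 62.1 and 54.9 with coMO. The signals overlapped, and the log2 change of 0.18 had a 95% interval from -0.43 to 0.79 in a fit of all probe sets. The second esr2a probe set was at 2.32 and 22.6 in ERbeta2 MO embryos and at 4.23 and 29.2 in uninjected embryos. For esr2b the ERbeta2 MO arrays read 48.5 and 46.7, the uninjected arrays 57.2 and 55.3 and the coMO arrays 61.2 and 53.5. The esr2b signals lay within a narrow band on all 6 arrays, with a log2 change of -0.15 (SE 0.219). The signals of esr1, the alpha receptor, ran from 15.9 to 54.8 over the 6 arrays. None of these probe sets reached the mean signal needed for testing, and whether the injection lowered the receptor protein cannot be read from these data.

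The 2 groups differed across a large share of the array. Of the 11626 tested probe sets 2156 were called, or 18.5%, of which 966 (8.31%) were higher and 1190 (10.2%) lower in ERbeta2 MO embryos. The falls were larger than the rises: 895 called probe sets were at least 2-fold lower and 455 at least 2-fold higher, and 62 were at least 8-fold lower against 2 that were at least 8-fold higher. The median log2 change of the called probe sets was 0.98 for the rises and -1.28 for the falls, and 0.03 over all tested probe sets. The 2 signals of one group lay entirely above or below those of the other in 63.7% of probe sets. Against coMO, ERbeta2 MO embryos differed in 266 probe sets (2.29%), of which 76 were higher (0.654%) and 190 lower (1.63%). This comparison and the one with uninjected embryos share the 2 ERbeta2 MO arrays, so agreement between them is partly built in. Between coMO and uninjected embryos limma called 0 probe sets, with 1456 at an unadjusted p under 0.05.

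The number of calls depended heavily on which array was left out. Without uninjected replicate 1 the fit called 35 probe sets, and without uninjected replicate 2 it called 390. Without ERbeta2 MO replicate 1 or 2 it called 3150 and 2991. Each of these fits assumes that the lone array left in a group varies like the arrays of the other groups. A group left with 1 array adds nothing to the estimate of spread, so the counts do not show which arrays carry the changes. Without uninjected replicate 1 the median log2 change moved from 0.30 to 0.26 for the transcription factors listed below. It moved from -0.64 to -0.57 for the metabolic genes and from -3.50 to -2.84 for exocrine pancreas genes. The direction turned in 0 of the 2156 called probe sets when any 1 array was left out. That count says little about stability, since it cannot turn where the signals of the 2 groups do not overlap. The signal ratio of the 3′ to the 5′ control probe set of GAPDH, a measure of how complete the labelled RNA was, also moved with the groups. Uninjected arrays had ratios of 1.32 and 1.24, coMO arrays 1.95 and 1.23, and ERbeta2 MO arrays 2.76 and 2.01. For acta1 the uninjected arrays had 3.54 and 4.26, the coMO arrays 21.8 and 10.8, and the ERbeta2 MO arrays 8.92 and 13.5. Limma called 0 probe sets once the GAPDH ratio entered as a covariate, with 1053 at an unadjusted p under 0.05, and the direction turned in 3 of the 2156. In that fit the standard error was 1.86 times as large at the median probe set. A kept direction there does not mean a kept size. With the covariate the log2 change went from -1.82 to -0.13 for top2a and from -1.59 to -0.23 for rx1. It went from -1.47 to -0.10 for acvr1ba and from -1.37 to -0.06 for elovl8b. Others moved little, such as sod2 (-1.82 to -1.80) and notch3 (0.80 to 0.79). The part of RNA completeness in the changes below was not tested further. The number of arrays limits the precision of every value. P-values rest on a spread taken from the arrays of all 3 groups and moderated across probe sets. With 1 array a pool, that spread holds differences between pools and between arrays alike.

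**Figure D1:**
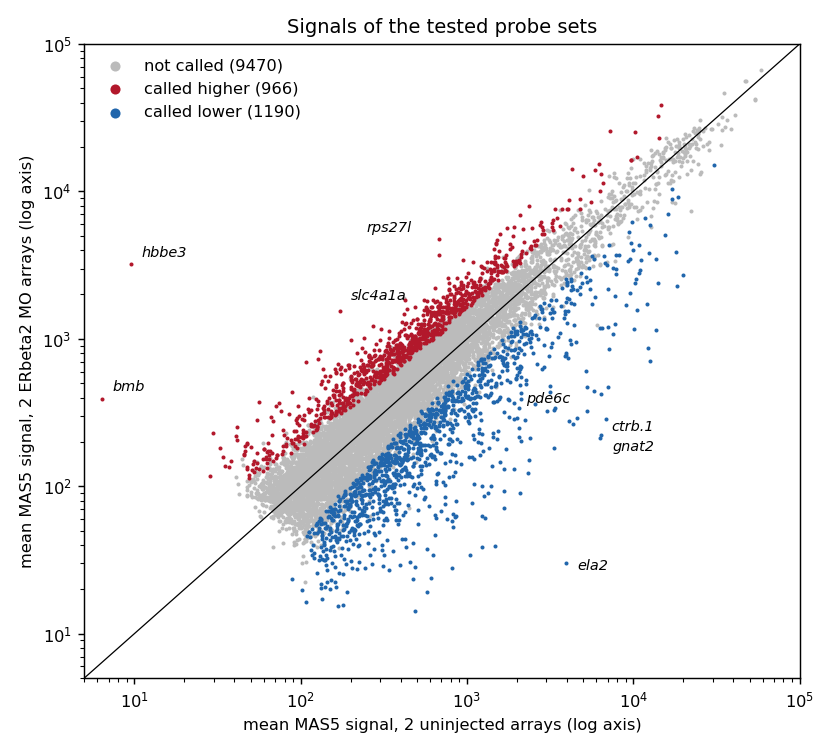
Mean MAS5 signal of each tested probe set in the 2 ERbeta2 MO arrays (vertical, log axis) against the 2 uninjected arrays (horizontal, log axis), with equal signals on the line. Of the 966 probe sets called higher (red) 455 were at least 2-fold and 13, such as hbbe3, at least 4-fold higher. Of the 1190 called lower (blue) 895 were at least 2-fold and 191 at least 4-fold lower.

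The largest rise was in a globin gene and the largest falls were in digestive enzymes and cone proteins. The signals of hbbe3, which encodes an embryonic beta globin, were 3716 and 2678 in ERbeta2 MO embryos, 10.6 and 8.55 in uninjected embryos and 213 and 42.2 in coMO embryos. Hbbe3 had a log2 change of 6.26 (SE 0.48, adjusted p = 0.00321). The uninjected signals were very low, and 1 coMO array stood well above the other. Bmb, brambleberry, known in zebrafish for nuclear membrane fusion in the first cleavages, had signals of 513 and 272 with ERbeta2 MO and of 5.45 and 7.31 without injection, beside 36.4 and 48.6 with coMO. This gave bmb a log2 change of 3.41 (SE 0.308, adjusted p = 0.00348). The order of the groups was the same as for the globin, with ERbeta2 MO highest, coMO between and uninjected lowest. Both hbbe3 and bmb reached the mean signal needed for testing only through their ERbeta2 MO signals. For slc4a1a, the anion exchanger of the red cell membrane, the ERbeta2 MO arrays read 1938 and 1137, the uninjected arrays 139 and 204 and the coMO arrays 309 and 195. Slc4a1a rose by 2.92 in log2 terms, with an SE of 0.321 and an adjusted p of 0.00348. The 2 ERbeta2 MO signals were above the others, and those of coMO and uninjected embryos overlapped.

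Next in size came genes of complement, matrix breakdown and a ribosomal protein relative. The signals of rps27l, a close relative of a small ribosomal subunit protein, were 6489.8 and 3052 in ERbeta2 MO embryos, 673 and 689 in uninjected embryos and 856 and 813 in coMO embryos. Rps27l had a log2 change of 2.65 (SE 0.32, adjusted p = 0.00402). Replicate 1 of ERbeta2 MO was well above replicate 2, and both were above the coMO and uninjected signals. C6.2, a complement component, had signals of 805 and 599 with ERbeta2 MO and of 113 and 101 without injection, beside 129.9 and 99.6 with coMO. This gave c6.2 a log2 change of 2.38 (SE 0.233, adjusted p = 0.00348). For mmp9, a matrix metalloproteinase of wound and inflammatory tissue, the ERbeta2 MO arrays read 1276 and 381, the uninjected arrays 116 and 146 and the coMO arrays 89.2 and 82.1. Mmp9 had a log2 change of 2.18 (SE 0.458, adjusted p = 0.0172), and most of it came from replicate 1 of ERbeta2 MO. The other largest rises were timp2b (1.75), ttn.2 (1.73), ptprsa (1.72), socs3b (1.70), isg15 (1.79), atf5b (1.79), atf3 (1.77), magi1b (1.99) and zgc:172053 (2.10). A second magi1b probe set, at 0.50, did not pass the test. Of the 15 largest rises 11 were also called against coMO, a comparison that shares the 2 ERbeta2 MO arrays and is no separate evidence. The fit without uninjected replicate 1 called 3 of them, and the fit without uninjected replicate 2 called 11.

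Among the 15 largest falls, 8 encode digestive enzymes of the exocrine pancreas and 4 encode proteins of the photoreceptor cascade. The signals of ela2, a pancreatic elastase, were 12 and 48.1 in ERbeta2 MO embryos, 6313 and 1577 in uninjected embryos and 216 and 717 in coMO embryos. Ela2 fell by 5.75 in log2 terms, with an SE of 0.685 and an adjusted p of 0.00402. Uninjected embryos had the highest signals on both arrays but differed widely between themselves, and coMO lay between the groups. Gnat2, the alpha subunit of cone transducin, had signals of 58.2 and 390.2 with ERbeta2 MO and of 6307 and 6567 without injection, beside 2783 and 4869 with coMO. Gnat2 had a log2 change of -5.05 (SE 0.608, adjusted p = 0.00402). Here the coMO signals lay below the uninjected ones (log2 difference -0.80), and both ERbeta2 MO signals were far below coMO (log2 difference -4.25). The remaining 3 were fabp10a, a liver fatty acid binding protein, epd, an ependymin, and zgc:66156, with log2 changes of -3.83, -3.89 and -4.04. Of the 15 largest falls 9 were also called against coMO, again with the same 2 ERbeta2 MO arrays in both comparisons. Without uninjected replicate 1 the count called was 6, and without uninjected replicate 2 it was 15.

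Genes of known pathways and tissues were then read as lists. At the level of genes, 7299 were tested, 542 rose (7.43%) and 772 fell (10.6%), and these shares are the background for each list below. The lists were chosen with earlier results of these data known, so a list's share against this background is a description and not a test. In RNA of whole embryos, fewer cells of a type and less RNA per cell cannot be told apart.

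**Figure D2:**
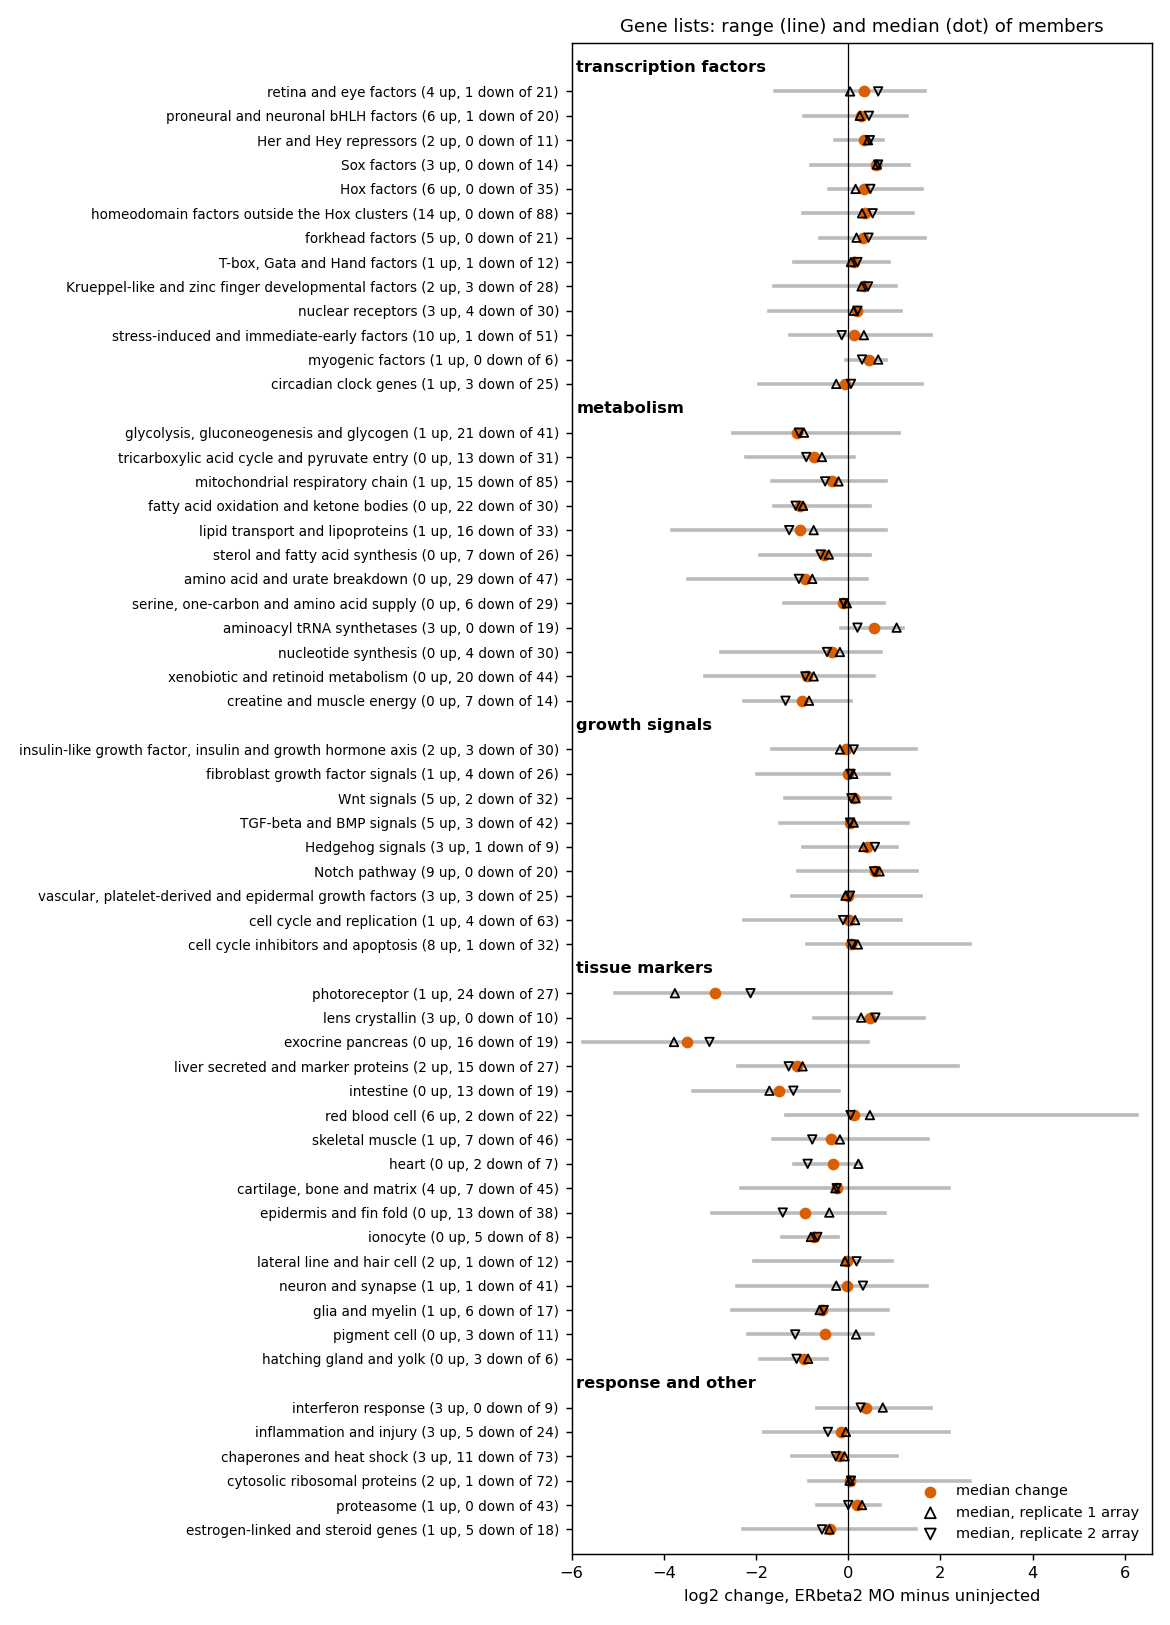
Log2 change between ERbeta2 MO and uninjected embryos for the members of each gene list (grey line from the lowest to the highest member, orange dot at the median), with the list's median on each ERbeta2 MO array against the uninjected mean (triangles). Counts in brackets are called rises and falls among the tested members. Photoreceptor and exocrine pancreas lists have the lowest medians, -2.90 and -3.50, and most transcription factor lists lie a little above 0.

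The listed transcription factors moved mostly upward. Of 433 listed genes on the array, clock genes among them, 346 were tested, and 55 rose (15.9%) while 13 fell (3.76%). The median log2 change was 0.30, against 0.00 over all tested genes, and 246 of the 346 lay above 0. The median was 0.26 and 0.37 on the ERbeta2 MO arrays and 0.18 and 0.09 on the coMO arrays, so coMO embryos lay between. Against coMO 6 of the 346 were called higher and 1 lower. In limma 0 of these genes were called without uninjected replicate 1, with 78 at an unadjusted p under 0.05 and a median of 0.26. Without uninjected replicate 2 the fit called 5 rises and 1 fall, with 92 at an unadjusted p under 0.05.

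Factors of nerve cell formation and of the retina were among the rises. Proneural and neuronal bHLH factors, which start the differentiation of nerve cells, had 6 rises and 1 fall among 20 tested. For neurog1, which commits cells to sensory and other neurons, the ERbeta2 MO arrays read 368 and 286, the uninjected arrays 110.2 and 122 and the coMO arrays 181 and 184. This gave neurog1 a log2 change of 1.27 (SE 0.215, adjusted p = 0.00862). Each ERbeta2 MO signal was above each coMO signal, and the coMO signals were above the uninjected ones. The other named rises of this list were neurod4 (0.98), olig3 (0.95) and olig2 (0.87 on the log2 scale). The signals of olig2, a factor of motor neuron and oligodendrocyte precursors, were 545 and 549.9 in ERbeta2 MO embryos, 279.6 and 289 in uninjected embryos and 419.6 and 308 in coMO embryos. The fall was id2b, an inhibitor of bHLH factors, with a log2 change of -0.85 (adjusted p = 0.0349). A second id2b probe set was at -0.06.

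Of 21 tested retina and eye factors 4 rose and 1 fell. Foxn4, which in vertebrate retina promotes horizontal and amacrine cells, had signals of 681 and 653 with ERbeta2 MO and of 143 and 246 without injection, beside 222 and 252 with coMO. Foxn4 rose by 1.66 in log2 terms, with an SE of 0.254 and an adjusted p of 0.00692. Both ERbeta2 MO signals lay above all others, but a second foxn4 probe set, at 0.21, did not pass the test. For atoh7, which is needed for retinal ganglion cells, the ERbeta2 MO arrays read 121 and 138, the uninjected arrays 49.4 and 52.5 and the coMO arrays 70.8 and 75.7. Atoh7 had a log2 change of 0.96 (adjusted p = 0.0227), but it reached the mean signal needed for testing only through its ERbeta2 MO signals. Pax6a, a regulator of eye formation, rose by 0.88 (adjusted p = 0.048). Nr2e3, a photoreceptor nuclear receptor, rose by 0.80 (adjusted p = 0.0336). The signals of rx1, a retinal homeobox factor of photoreceptor genes, were 56.8 and 145 in ERbeta2 MO embryos, 305 and 391 in uninjected embryos and 161 and 305 in coMO embryos. Rx1 had a log2 change of -1.59 (SE 0.38, adjusted p = 0.0252). Rx1 was lowest in ERbeta2 MO replicate 1. The retina list's median was 0.04 on ERbeta2 MO replicate 1 and 0.65 on replicate 2, so the 2 arrays disagreed about its size.

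Some Hox and other homeodomain factors, many of which pattern the body axis, also rose. Among 35 tested Hox genes 6 rose (17.1%), and among the 88 other homeodomain genes of that list, which leaves out the eye factors above, 14 rose (15.9%), with 76 of the 88 above 0. Neither list held a called fall. Hoxb9a had signals of 1087 and 876 with ERbeta2 MO and of 301 and 300.4 without injection, beside 640.4 and 343 with coMO. This gave hoxb9a a log2 change of 1.60 (SE 0.287, adjusted p = 0.0105). A second hoxb9a probe set was at 0.52 and a second hoxa9a probe set at 0.17, neither called, while the named hoxa9a probe set rose by 1.22. For hoxb3a the ERbeta2 MO arrays read 2408 and 2452, the uninjected arrays 1042 and 1177 and the coMO arrays 1933 and 1861. Hoxb3a had a log2 change of 1.11 (SE 0.181, adjusted p = 0.00808), and its coMO signals lay nearer to ERbeta2 MO than to uninjected embryos. The signals of pbx4, a partner of Hox proteins, were 1839.8 and 2025 in ERbeta2 MO embryos, 589.8 and 839.9 in uninjected embryos and 1241 and 1029 in coMO embryos. Pbx4 rose by 1.41 in log2 terms, with an SE of 0.227 and an adjusted p of 0.00783. Lhx1a, a LIM homeodomain factor of the pronephros and of interneurons, had signals of 1186 and 1542 with ERbeta2 MO and of 500.2 and 508 without injection, beside 912 and 530.5 with coMO. Lhx1a had a log2 change of 1.37 (adjusted p = 0.0146), and its other probe sets were at 1.17 and 0.83. Pax2b rose by 1.29, with a second probe set at 0.34.

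Sox, forkhead and Her factors gave smaller counts in the same direction. Of 14 tested Sox factors, many of which keep neural precursors, 3 rose and none was called lower, and the list's median of 0.61 was the highest among the factor lists. For sox11b the ERbeta2 MO arrays read 1760.4 and 1734, the uninjected arrays 641 and 737 and the coMO arrays 1211 and 945. Sox11b had a log2 change of 1.31 (SE 0.204, adjusted p = 0.00751). The other sox11b probe sets were at 0.91 and 1.70 and were called too. Sox3 rose by 1.00 and sox11a by 0.80, and their probe sets share a cluster name with those of another gene, so their identity is less certain. A second sox3 probe set was at 0.15 and not called, and of 2 further sox11a probe sets the one at 1.03 was called and the one at 0.75 was not. Among 21 forkhead factors 5 rose, including foxd3, a neural crest factor, at 1.00 (adjusted p = 0.0148), and foxj3 at 0.97 (adjusted p = 0.0165). Of 11 Her and Hey repressors, many of them Notch targets, her9 rose by 0.76 and hes6 by 0.75, with adjusted p of 0.0465 and 0.0259.

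Stress-induced and immediate-early factors had 10 rises and 1 fall among 51 tested. This list leaves out nr4a1, an immediate-early nuclear receptor given below, which had a called log2 change of -1.51. The signals of atf5b were 1826 and 1362 in ERbeta2 MO embryos, 446 and 424 in uninjected embryos and 577 and 308 in coMO embryos. This gave atf5b a log2 change of 1.79 (SE 0.294, adjusted p = 0.00823). Atf3, which is induced by many kinds of cell stress, had signals of 1546 and 783 with ERbeta2 MO and of 260.0 and 346 without injection, beside 216 and 221 with coMO. Atf3 rose by 1.77 in log2 terms, with an SE of 0.313 and an adjusted p of 0.00998. Replicate 1 of ERbeta2 MO was higher than replicate 2 for both atf genes, and coMO was at or below the uninjected level for atf3. For fosl2, a Fos family member, the ERbeta2 MO arrays read 913 and 603, the uninjected arrays 242 and 275 and the coMO arrays 299 and 271. Fosl2 had a log2 change of 1.42 (adjusted p = 0.00861), and 2 further probe sets were at 0.60 and 0.37 and not called. The signals of irf7, an interferon regulatory factor, were 280.5 and 164 in ERbeta2 MO embryos, 80.2 and 53.8 in uninjected embryos and 78.3 and 77.8 in coMO embryos. Irf7 had a log2 change of 1.33 (SE 0.283, adjusted p = 0.0177). Both irf7 signals of ERbeta2 MO were above those of the other groups, whose mean lay just under that needed for testing. The fall was creb3l3a, a liver and intestine factor of lipid metabolism, at -0.81 (adjusted p = 0.0398). Creb3l3a reached the mean signal needed for testing only through its uninjected signals. The list's median was 0.12, and it was -0.14 without ERbeta2 MO replicate 1 and 0.34 without replicate 2. The atf3, atf5b and fosl2 levels also differed from coMO, with adjusted p of 0.0216, 0.0338 and 0.042.

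Some factors of the gut and liver, the endothelium and the clock fell, in lists whose shares of falls were near the background. Hnf4a, a nuclear receptor of liver and intestine, had signals of 43.9 and 43.7 with ERbeta2 MO and of 208 and 225 without injection, beside 88.8 and 147 with coMO. This gave hnf4a a log2 change of -1.71 (SE 0.252, adjusted p = 0.00636). The 2 ERbeta2 MO signals were almost equal and the lowest, and coMO lay between the groups. For klf2a, which responds to blood flow in endothelium, the ERbeta2 MO arrays read 329.7 and 199.9, the uninjected arrays 872 and 849.6 and the coMO arrays 524 and 684. Klf2a fell by 1.62 in log2 terms, with an SE of 0.259 and an adjusted p of 0.00775. Its paralog klf2b fell by 1.21 (adjusted p = 0.0154) and klf9, a glucocorticoid-induced factor, fell by 1.22 (adjusted p = 0.0231). The signals of nr4a1, an immediate-early nuclear receptor, were 368 and 158 in ERbeta2 MO embryos, 739 and 769 in uninjected embryos and 241 and 352 in coMO embryos. Nr4a1 had a log2 change of -1.51 (SE 0.345, adjusted p = 0.0222). The ERbeta2 MO signals of nr4a1 lay on either side of the coMO signals, and all 4 were below the uninjected ones. Gata5, a factor of heart and endoderm, fell by 1.18 (adjusted p = 0.0131), whereas gata3 rose by 0.84 (adjusted p = 0.0349). Rises in these families were nr2f2 (1.15, with a second probe set at 0.19), nr2f6a (1.03), sp8b (1.04) and sall2 (0.82). The nuclear receptor list had 3 rises and 4 falls among 30 (10% and 13.3%). The Krüppel-like and zinc finger list had 2 rises and 3 falls among 28 (7.14% and 10.7%). Over all genes the shares were 7.43% and 10.6%.

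Clock genes were mixed, with 1 rise and 3 falls among 25 tested (4% and 12%, against 7.43% and 10.6% of all genes). Cry3a, a cryptochrome of the clock's negative arm, had signals of 95 and 104 with ERbeta2 MO and of 501 and 442 without injection, beside 225 and 343 with coMO. This gave cry3a a log2 change of -1.93 (SE 0.24, adjusted p = 0.00402). For bhlhe40, a light- and clock-regulated repressor, the ERbeta2 MO arrays read 1376 and 946, the uninjected arrays 2923 and 3082 and the coMO arrays 1959 and 2598. Bhlhe40 had a log2 change of -1.37 (SE 0.239, adjusted p = 0.00954), and that of nr1d2a, a Rev-erb receptor, was -1.50 (SE 0.332, adjusted p = 0.02). Nfil3-5, a bZIP repressor whose probe set shares a cluster name with another gene's, rose by 1.61 (adjusted p = 0.00862). The hour of sampling is not in the labels beyond the age of the embryos. Among myogenic factors 1 of 6 rose, myod1, with a log2 change of 0.83 (adjusted p = 0.048).

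**Figure D3:**
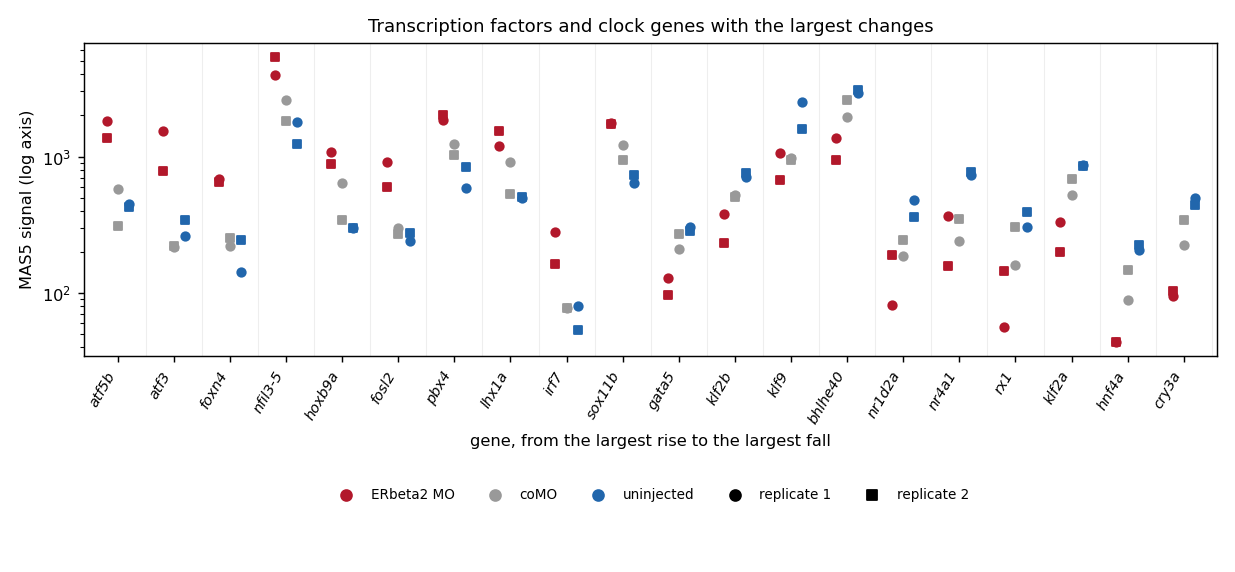
MAS5 signals (log axis) on all 6 arrays for the 10 transcription factors and clock genes with the largest called rises and the 10 with the largest called falls. ERbeta2 MO signals (red) lie above both uninjected signals (blue) from atf5b to sox11b and below them from gata5 to cry3a, and coMO signals (grey) often lie between.

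Metabolic genes fell. Of 463 on the array 427 were tested, and 159 fell (37.2%) while 6 rose (1.41%), with a median log2 change of -0.64. The median was -0.50 on ERbeta2 MO replicate 1 and -0.74 on replicate 2, and -0.40 and -0.16 on the coMO arrays, so coMO embryos lay between. Without uninjected replicate 1 the fit called 3 falls (164 genes at an unadjusted p under 0.05, median -0.57), and without uninjected replicate 2 it called 50 falls (201 at an unadjusted p under 0.05). Against coMO 24 of the 427 were called lower. Several lists hold genes made mainly in liver, intestine, muscle or retina, whose marker lists had medians of -1.12, -1.51, -0.38 and -2.90, and the part of these tissues in the metabolic changes was not tested.

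Sugar metabolism lost signal on both of its branches. Among 41 tested genes of glycolysis, gluconeogenesis and glycogen 21 fell and 1 rose, with a median of -1.12. The signals of fbp1b, fructose-bisphosphatase, an enzyme specific to gluconeogenesis, were 347 and 329 in ERbeta2 MO embryos, 2327 and 1797 in uninjected embryos and 740.1 and 1445 in coMO embryos. Fbp1b fell by 2.49 in log2 terms, with an SE of 0.306 and an adjusted p of 0.00402. Pfkma, the muscle phosphofructokinase that commits sugar to glycolysis, had signals of 269.9 and 177 with ERbeta2 MO and of 1018 and 1149 without injection, beside 489.8 and 726 with coMO. Pfkma had a log2 change of -2.15 (SE 0.265, adjusted p = 0.00402). For both enzymes every ERbeta2 MO signal was below every other array, and coMO was below uninjected. For pcxb, a pyruvate carboxylase, the ERbeta2 MO arrays read 23.9 and 6.62, the uninjected arrays 158 and 177 and the coMO arrays 49.2 and 64.6. This gave pcxb a log2 change of -2.10 (SE 0.268, adjusted p = 0.0042). Pcxb reached the mean signal needed for testing only through its uninjected signals. The single rise was pfkfb3, which makes an activator of phosphofructokinase, at 1.10 (adjusted p = 0.0392). A second pfkfb3 probe set was called in the other direction, at -1.63 (adjusted p = 0.0238), so this rise is uncertain.

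The tricarboxylic acid cycle and the entry of pyruvate gave 13 falls and no called rise among 31 genes. The signals of mdh1ab, a malate dehydrogenase, were 838 and 411 in ERbeta2 MO embryos, 2925 and 2764 in uninjected embryos and 1439 and 2282 in coMO embryos. Mdh1ab fell by 2.21 in log2 terms, with an SE of 0.339 and an adjusted p of 0.00701. Pdk4, a kinase that shuts pyruvate dehydrogenase during fasting, had signals of 92.1 and 91.2 with ERbeta2 MO and of 369.8 and 359.6 without injection, beside 114 and 151 with coMO. Pdk4 had a log2 change of -1.68 (SE 0.215, adjusted p = 0.0042). The 2 ERbeta2 MO signals of pdk4 were nearly equal and coMO was close to them. Its relative pdk2b fell by 1.77 (adjusted p = 0.0205), with uninjected signals of 720.1 and 299 that differed more than 2-fold between replicates. Of 85 respiratory chain genes 15 fell and 1 rose, and 79 lay below 0, with a median of -0.35. For cox4i2, a cytochrome c oxidase subunit isoform, the ERbeta2 MO arrays read 85.8 and 189, the uninjected arrays 480.3 and 466 and the coMO arrays 343 and 356. This gave cox4i2 a log2 change of -1.65 (SE 0.294, adjusted p = 0.0103). Ndufv1, a complex I core subunit, fell by 1.07 (adjusted p = 0.0109), and cox4i1l fell by 1.30 (adjusted p = 0.0105). Cox17, a copper chaperone for the oxidase, rose by 0.83 (adjusted p = 0.0257). The count of respiratory chain falls was 36 without ERbeta2 MO replicate 1 and 14 without replicate 2, with medians of -0.50 and -0.21. In limma 0 of the 85 were called without uninjected replicate 1 or without replicate 2, with 15 and 17 at an unadjusted p under 0.05.

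Genes of fatty acid burning fell in the highest share of any metabolic list, 22 of 30 (73.3%), with a median of -1.05 and no called rise. The signals of cpt2, which brings long fatty acids into the mitochondrial matrix, were 292 and 294 in ERbeta2 MO embryos, 959 and 978 in uninjected embryos and 559 and 695 in coMO embryos. Cpt2 fell by 1.62 in log2 terms, with an SE of 0.198 and an adjusted p of 0.00402. A second cpt2 probe set was at -2.51. Acadvl, the very long chain acyl-CoA dehydrogenase, had signals of 421 and 418 with ERbeta2 MO and of 1381 and 1198 without injection, beside 757 and 860.5 with coMO. Acadvl had a log2 change of -1.55 (SE 0.193, adjusted p = 0.00402). Both enzymes had replicate signals close together in ERbeta2 MO embryos, below all other arrays. Acadl fell by 1.49 (adjusted p = 0.00681) and hsd17b4, a peroxisomal enzyme, fell by 1.45 (adjusted p = 0.00753). Limma called 0 of the 30 without uninjected replicate 1, with 22 at an unadjusted p under 0.05, and without uninjected replicate 2 it called 9.

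Lipid carriers fell with them, 16 of 33 tested, and 1 rose. For fabp10a, the liver fatty acid binding protein, the ERbeta2 MO arrays read 45 and 141, the uninjected arrays 2100.3 and 1233 and the coMO arrays 766 and 1098. This gave fabp10a a log2 change of -3.83 (SE 0.407, adjusted p = 0.00348). The signals of fabp2, the intestinal fatty acid binding protein, were 458 and 480.3 in ERbeta2 MO embryos, 6707 and 3774 in uninjected embryos and 2191 and 2959 in coMO embryos. Fabp2 fell by 3.34 in log2 terms, with an SE of 0.288 and an adjusted p of 0.00348. The uninjected replicates differed widely between themselves for both genes, and the ERbeta2 MO signals were far below them. Mttp, which loads lipid onto lipoproteins, had signals of 95.5 and 79.6 with ERbeta2 MO and of 276 and 236 without injection, beside 243 and 200.3 with coMO. Mttp had a log2 change of -1.27 (adjusted p = 0.0091), that of apoc2, an apolipoprotein, was -1.91 (adjusted p = 0.0196), and that of apoda.2 was -3.75 (adjusted p = 0.00348). Scarb1, a lipoprotein receptor, fell by 0.93 (adjusted p = 0.0234), and lrp1aa, a large endocytic receptor, rose by 0.81 (adjusted p = 0.0267). In sterol and fatty acid synthesis 7 of 26 fell. For fads2, a desaturase, the ERbeta2 MO arrays read 102 and 95.6, the uninjected arrays 323 and 356 and the coMO arrays 258 and 301. Fads2 had a log2 change of -1.51 (adjusted p = 0.00512), and cyp51, a sterol demethylase, fell by 1.91 (adjusted p = 0.0136). The called fall of elovl8b was -1.37 (adjusted p = 0.0448), with coMO signals of 71.7 and 222 that spanned most of the range. Second probe sets of cyp51 (-0.99), elovl8b (-1.0) and scarb1 (-0.97) were not called.

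Breakdown of amino acids and urate fell in 29 of 47 genes (61.7%), with a median of -0.94 and no called rise. The signals of uox, urate oxidase of the liver peroxisome, were 53.5 and 146 in ERbeta2 MO embryos, 1776 and 1009.6 in uninjected embryos and 694 and 908 in coMO embryos. Uox had a log2 change of -3.48 (SE 0.385, adjusted p = 0.0035). Hgd, which acts in tyrosine breakdown, had signals of 94.7 and 109 with ERbeta2 MO and of 907 and 570.4 without injection, beside 392 and 555 with coMO. This gave hgd a log2 change of -2.49 (SE 0.274, adjusted p = 0.00348). Tdo2a, which opens the tryptophan ring, fell by 2.63 (adjusted p = 0.0035). In all 3 genes the order was uninjected highest, coMO between and ERbeta2 MO lowest. Amino acid supply had 6 falls among 29, among them glula, a glutamine synthetase, at -1.36 (adjusted p = 0.00522), slc3a2a, a subunit of amino acid transporters, at -1.39 (adjusted p = 0.0065), and slc38a4 at -1.25 (adjusted p = 0.00837). The median of that list was -0.11.

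Xenobiotic and retinoid genes had 20 falls among 44 and no called rise. For cyp2y3, a cytochrome P450, the ERbeta2 MO arrays read 37.8 and 37.6, the uninjected arrays 672 and 473 and the coMO arrays 77.3 and 253. Cyp2y3 fell by 3.10 in log2 terms, with an SE of 0.411 and an adjusted p of 0.00494. The signals of rpe65a, the retinoid isomerase of the visual cycle, were 605 and 181 in ERbeta2 MO embryos, 3014 and 1191 in uninjected embryos and 1030.0 and 964 in coMO embryos. Rpe65a had a log2 change of -2.39 (SE 0.537, adjusted p = 0.021). Replicates of rpe65a differed widely in both groups but did not overlap, and a second probe set, at -1.98, was not called. Rbp4l, a retinol binding protein, fell by 2.53 (adjusted p = 0.00772), and bco1, which splits carotenoids, fell by 1.14 (adjusted p = 0.0129). Creatine and muscle energy genes gave 7 falls among 14. Ckmt2a, a mitochondrial creatine kinase, had signals of 356 and 937 with ERbeta2 MO and of 2765 and 3074 without injection, beside 2689 and 3024 with coMO. This gave ckmt2a a log2 change of -2.26 (SE 0.373, adjusted p = 0.00823). The coMO and uninjected signals of ckmt2a overlapped, and ERbeta2 MO was also lower than coMO (log2 difference -2.23, adjusted p = 0.0347). Mb, myoglobin, fell by 1.78, with uninjected signals of 2167 and 989, and pgam2, the muscle phosphoglycerate mutase, fell by 1.92. Of 30 nucleotide synthesis genes 4 fell, led by nme2a at -2.77 (adjusted p = 0.00402) and adss1, a muscle adenylosuccinate synthase, at -2.48 (adjusted p = 0.00407). Nme2b.2 fell by 1.29 (adjusted p = 0.0328).

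Aminoacyl tRNA synthetases, which charge tRNAs for translation, went the other way. Of 19 tested 3 rose, 18 lay above 0 and the median was 0.55. For farsa the ERbeta2 MO arrays read 2176 and 1132, the uninjected arrays 692 and 649.8 and the coMO arrays 886 and 806. Farsa rose by 1.19 in log2 terms, with an SE of 0.292 and an adjusted p of 0.0278. The signals of iars1 were 1677 and 834 in ERbeta2 MO embryos, 563 and 494 in uninjected embryos and 385 and 527 in coMO embryos. Iars1 had a log2 change of 1.12 (SE 0.323, adjusted p = 0.0451). ERbeta2 MO replicate 1 carried most of both rises. The median of the list was 1.05 on ERbeta2 MO replicate 1 and 0.20 on replicate 2, and the count of rises was 2 without replicate 1 and 14 without replicate 2. Limma called 0 of the 19 without either one of the uninjected replicates, with 5 and 7 at an unadjusted p under 0.05. The third rise was eprs1 at 0.99 (adjusted p = 0.037). The median difference from coMO was 0.60.

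**Figure D4:**
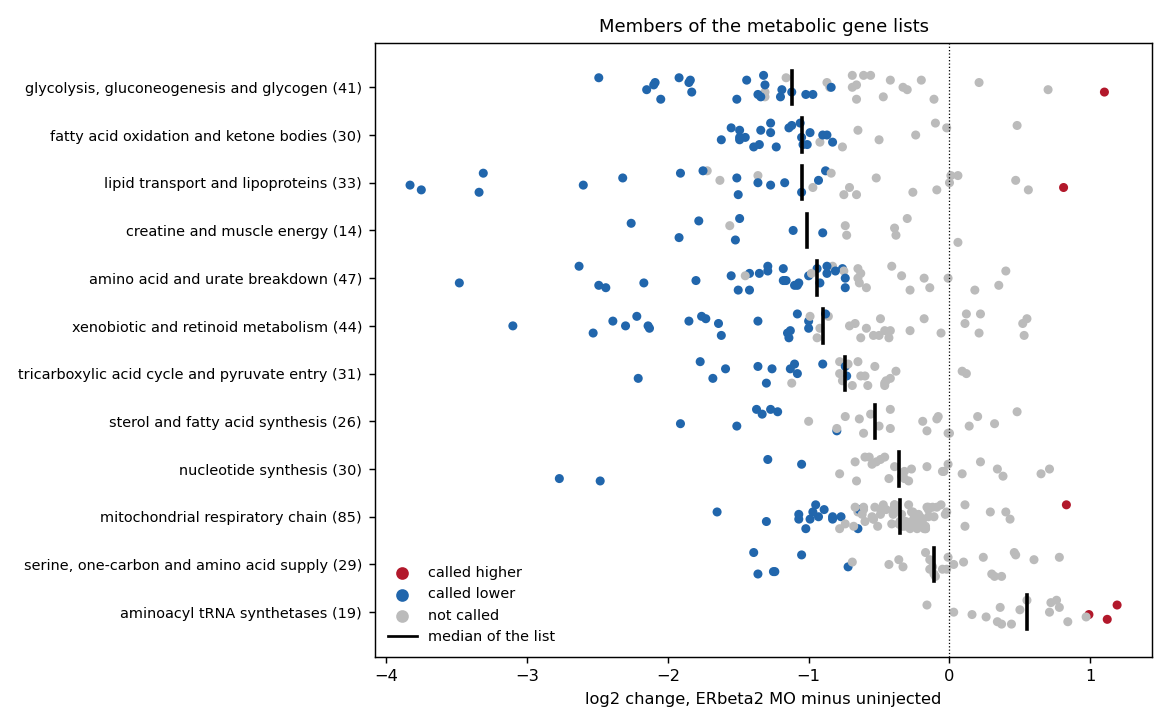
Log2 change between ERbeta2 MO and uninjected embryos for every tested member of the metabolic lists (1 point a gene, spread vertically for legibility, black bar at the list's median). Blue points are called falls, red points called rises and grey points not called. The lists run from a median of -1.12 for sugar metabolism to 0.55 for aminoacyl tRNA synthetases, and fatty acid oxidation holds 22 called falls among 30 genes.

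Growth signals had a median change near 0, with more called rises and fewer called falls than the background shares. Of 334 genes on the array 278 were tested. Of these 37 rose (13.3%, against 7.43% of all genes) and 21 fell (7.55%, against 10.6%). The median log2 change was 0.05, with 148 genes above 0 and 130 below. Limma called 0 of them without uninjected replicate 1, with 58 at an unadjusted p under 0.05, and without uninjected replicate 2 it called 6 rises and 2 falls.

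The insulin-like growth factor axis, which couples nutrition to growth, had 2 rises and 3 falls among 30 genes. These shares, 6.67% and 10%, were near the 7.43% and 10.6% of all genes. The called genes were binding proteins, receptors and an adaptor. Igfbp1a, a secreted binding protein that rises in fasting and hypoxia and restrains the growth factors, had signals of 4581 and 3575 with ERbeta2 MO and of 1675 and 1239 without injection, beside 1031 and 717 with coMO. This gave igfbp1a a log2 change of 1.47 (SE 0.254, adjusted p = 0.00934). A second igfbp1a probe set was at 1.16 and called. CoMO was below the uninjected level, and ERbeta2 MO differed from coMO by 2.19 on the log2 scale (adjusted p = 0.014). For igfbp2a, another binding protein, the ERbeta2 MO arrays read 724 and 569, the uninjected arrays 2085 and 2112 and the coMO arrays 999 and 1328. Igfbp2a fell by 1.66 in log2 terms, with an SE of 0.219 and an adjusted p of 0.00489. The signals of igf1rb, a receptor of the growth factors, were 174 and 193 in ERbeta2 MO embryos, 85.8 and 104 in uninjected embryos and 110.4 and 97 in coMO embryos. Igf1rb had a log2 change of 0.76 (adjusted p = 0.044), with a second probe set at 1.40 that was called. Ghrb, a growth hormone receptor, had signals of 204 and 115 with ERbeta2 MO and of 551 and 286 without injection, beside 205 and 215 with coMO. Ghrb had a log2 change of -1.21 (adjusted p = 0.0392), and the uninjected replicates differed widely from each other. Irs2a, an adaptor of the insulin receptor, fell by 0.98 (adjusted p = 0.017).

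The ligands of the axis were not called. For igf1 the ERbeta2 MO arrays read 56.1 and 111, the uninjected arrays 105 and 130.1 and the coMO arrays 105 and 95.8. Igf1 had a log2 change of -0.41 with a 95% interval from -1.05 to 0.23, and its groups overlapped. Igf2a was at -0.09 (interval from -0.56 to 0.39) and igf2b at 0.26 (interval from -0.17 to 0.68).

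Notch signalling, which holds back differentiation of neighbouring cells, had 9 rises and no called fall among 20 genes, with a median of 0.59. The signals of dlb, a delta ligand, were 867 and 815 in ERbeta2 MO embryos, 253 and 299.8 in uninjected embryos and 399 and 277 in coMO embryos. Dlb had a log2 change of 1.50 (SE 0.228, adjusted p = 0.00681). Notch1a, a receptor, had signals of 325 and 272 with ERbeta2 MO and of 63.9 and 132 without injection, beside 113 and 94.8 with coMO. This gave notch1a a log2 change of 1.40 (SE 0.287, adjusted p = 0.0159). For both genes the ERbeta2 MO signals lay above all other arrays, and the 2 uninjected notch1a signals differed by more than 2-fold. For notch3, a receptor, the ERbeta2 MO arrays read 744 and 668, the uninjected arrays 325 and 467 and the coMO arrays 494 and 503. Notch3 had a log2 change of 0.80 (SE 0.222, adjusted p = 0.0394), and it was not called against coMO (difference 0.47, adjusted p = 0.277). Dla, a second delta ligand whose probe set shares a cluster name with another gene's, rose by 1.42. The list's median was 0.68 on ERbeta2 MO replicate 1 and 0.56 on replicate 2. Limma called 0 of the 20 without uninjected replicate 1, with 7 at an unadjusted p under 0.05, and without uninjected replicate 2 it called 3.

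Hedgehog genes were few, with 3 rises and 1 fall among 9. The signals of shha, sonic hedgehog, a ligand of the midline, were 1093 and 1166 in ERbeta2 MO embryos, 497 and 564 in uninjected embryos and 672 and 686 in coMO embryos. Shha rose by 1.05 in log2 terms, with an SE of 0.188 and an adjusted p of 0.0105. Its paralog shhb fell by 0.98 (adjusted p = 0.0364), with signals of 34.4 and 69.6 in ERbeta2 MO against 129 and 130.4 in uninjected embryos. Shhb reached the mean signal needed for testing only through its uninjected signals. Hhip, an inhibitor that binds the ligand, rose by 0.81 (adjusted p = 0.0193), and cdon, a co-receptor, by 0.70 (adjusted p = 0.0419). Further cdon probe sets were at 1.10, called, and 0.34, not called. In Wnt signalling 5 of 32 rose and 2 fell. Frzb, a secreted Wnt antagonist, had signals of 19.5 and 44 with ERbeta2 MO and of 131 and 128 without injection, beside 113 and 124 with coMO. Frzb had a log2 change of -1.37 (SE 0.257, adjusted p = 0.0121). The other secreted antagonist, sfrp1a, fell by 1.35 (adjusted p = 0.0141). The named rises were tcf7l2, a nuclear effector, at 0.91, rspo1, a secreted enhancer, at 0.89, and gsk3ab, a kinase of the pathway, at 0.82, with adjusted p of 0.0341, 0.0333 and 0.033. Rspo1 reached the mean signal needed for testing only through its ERbeta2 MO signals.

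Fibroblast growth factor genes had 1 rise and 4 falls among 26. For spry2, a feedback inhibitor induced by the pathway, the ERbeta2 MO arrays read 106 and 105, the uninjected arrays 500.3 and 523 and the coMO arrays 157 and 349.6. This gave spry2 a log2 change of -1.98 (SE 0.315, adjusted p = 0.00775). A second spry2 probe set was at -1.53 and called. The signals of fgfr4, a receptor, were 1450.2 and 1608 in ERbeta2 MO embryos, 739 and 959 in uninjected embryos and 1035 and 981 in coMO embryos. Fgfr4 had a log2 change of 0.83 (adjusted p = 0.027). Fgf6a, a muscle ligand, fell by 1.05 (adjusted p = 0.0239), and dusp23b, a phosphatase, fell by 1.22 (adjusted p = 0.0177). Among 42 TGF-beta and BMP genes 5 rose and 3 fell. Acvr2ba, a type II activin receptor, had signals of 2349 and 2299 with ERbeta2 MO and of 895 and 950.4 without injection, beside 1954 and 1583 with coMO. Acvr2ba rose by 1.30 in log2 terms, with an SE of 0.192 and an adjusted p of 0.00633. The other acvr2ba probe sets were at 1.04, called, and -0.07, not called. Acvr1ba, a type I receptor, fell by 1.47 (adjusted p = 0.0306), tgfbr2b fell by 1.04 (adjusted p = 0.0279), and inhbb, an activin subunit, rose by 0.95 (adjusted p = 0.0165). Smurf2, a ubiquitin ligase that removes the receptors, rose by 0.94 (adjusted p = 0.0217).

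Vascular and related factors were evenly split, with 3 rises and 3 falls among 25. For vegfaa, the main ligand of blood vessel growth, induced by low oxygen, the ERbeta2 MO arrays read 379 and 417, the uninjected arrays 127 and 99.3 and the coMO arrays 176 and 136. Vegfaa had a log2 change of 1.57 (SE 0.223, adjusted p = 0.00557). Both ERbeta2 MO signals were above the coMO signals, and the difference from coMO was called too (1.20, adjusted p = 0.042). The signals of tie1, an endothelial receptor, were 41.5 and 40.3 in ERbeta2 MO embryos, 124 and 152 in uninjected embryos and 67.1 and 95.4 in coMO embryos. This gave tie1 a log2 change of -1.21 (SE 0.242, adjusted p = 0.0145). Hbegfa, an epidermal growth factor ligand, rose by 0.82 (adjusted p = 0.0435), and cxcr4b, a chemokine receptor of migrating cells, by 0.96 (adjusted p = 0.0239). Pdgfrl fell by 1.16 (adjusted p = 0.014) and ccn2b, a matrix-bound growth factor modulator, by 0.83 (adjusted p = 0.0497). Tie1 and ccn2b reached the mean signal needed for testing only through their uninjected signals.

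Genes of the cell cycle changed little in number. Of 63 tested 1 rose and 4 fell (7.94% called), with a median of 0.02. Ccnd1, cyclin D1, which drives entry into the cycle, had signals of 5865 and 6518 with ERbeta2 MO and of 2904 and 2685 without injection, beside 4162 and 3547 with coMO. Ccnd1 rose by 1.14 in log2 terms, with an SE of 0.185 and an adjusted p of 0.00803. For mcm6, part of the replicative helicase, the ERbeta2 MO arrays read 10.7 and 44.8, the uninjected arrays 232 and 258 and the coMO arrays 68.1 and 160.0. Mcm6 had a log2 change of -2.27 (SE 0.378, adjusted p = 0.00837). Mcm6 reached the mean signal needed for testing only through its uninjected signals. The top2a probe set named by the rule fell by 1.82. Another, whose cluster name is shared, was called at -1.56, but a further top2a probe set was at -0.11 and not called. Kif20a, a kinesin of cell division, fell by 1.27 with another probe set at -0.48. Inhibitors of the cycle and apoptosis genes had 8 rises and 1 fall among 32. The largest of these rises was rps27l, at 2.65, given above and also counted among the ribosomal proteins. The signals of cdkn1ca, an inhibitor of cyclin-dependent kinases, were 1639 and 1471 in ERbeta2 MO embryos, 553 and 595 in uninjected embryos and 862 and 759 in coMO embryos. This gave cdkn1ca a log2 change of 1.39 (SE 0.191, adjusted p = 0.00522). Phlda3, a repressor of Akt signalling, had signals of 523 and 476 with ERbeta2 MO and of 163 and 198 without injection, beside 226 and 187 with coMO. Phlda3 rose by 1.33 in log2 terms, with an SE of 0.211 and an adjusted p of 0.00775. Gadd45ba, a stress-induced growth arrest gene, fell by 0.89 (adjusted p = 0.0303). Limma called 0 of the 32 without uninjected replicate 1, with 10 at an unadjusted p under 0.05, and without uninjected replicate 2 it called 3.

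**Figure D5:**
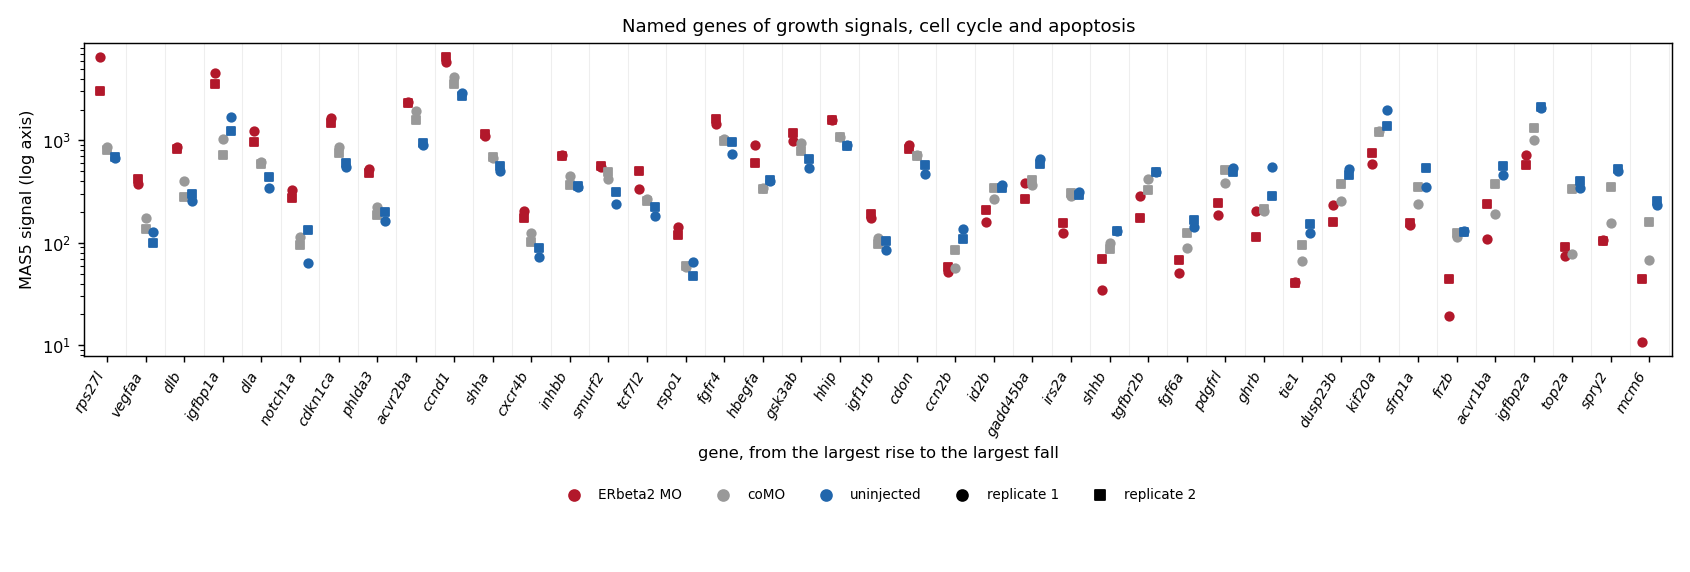
MAS5 signals (log axis) on all 6 arrays for the named genes of growth signals, the cell cycle and apoptosis, ordered from the largest called rise to the largest called fall. ERbeta2 MO signals (red) lie above both uninjected signals (blue) from rps27l to cdon and below them from ccn2b to mcm6.

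Photoreceptor genes fell almost throughout. Of 27 tested 24 fell (88.9%) and 1 rose, with a median log2 change of -2.90. For opn1mw1, a green cone opsin, the ERbeta2 MO arrays read 198 and 1532, the uninjected arrays 13196 and 11226 and the coMO arrays 8605 and 12374. Opn1mw1 had a log2 change of -4.35 (SE 0.714, adjusted p = 0.00823). The signals of pde6c, the cone phosphodiesterase, were 73.9 and 579 in ERbeta2 MO embryos, 5559.7 and 4992 in uninjected embryos and 2834 and 4083 in coMO embryos. This gave pde6c a log2 change of -4.38 (SE 0.659, adjusted p = 0.00681). ERbeta2 MO replicate 1 was several-fold lower than replicate 2 for both genes, and coMO stood much nearer to the uninjected level. The list's median was -3.76 on replicate 1, -2.12 on replicate 2, and -0.30 and -0.19 on the coMO arrays. Against coMO 17 of the 27 were called lower. The rise was gnb1b, a G protein beta subunit used in many cells, at 0.92 (adjusted p = 0.027). Limma called 0 of the 27 without uninjected replicate 1, with 26 at an unadjusted p under 0.05, and without uninjected replicate 2 it called 14. Of 10 lens genes 3 rose, and these were lctla (1.65), bfsp2 (1.16) and crygmxl2 (0.89), a lactase-like protein of the lens, a beaded filament protein and a gamma crystallin. The lens list's median on the coMO arrays was 0.65 and 0.53 and on the ERbeta2 MO arrays 0.28 and 0.59, so the 2 groups overlapped.

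Digestive organs gave the lowest list median. Among 19 exocrine pancreas genes 16 fell (84.2%), with a median of -3.50. Ctrb.1, chymotrypsinogen, had signals of 102 and 320.5 with ERbeta2 MO and of 8185 and 4443 without injection, beside 1204 and 2449 with coMO. Ctrb.1 fell by 4.80 in log2 terms, with an SE of 0.506 and an adjusted p of 0.00348. For amy2a, pancreatic amylase, the ERbeta2 MO arrays read 33.1 and 109, the uninjected arrays 2518 and 801 and the coMO arrays 168 and 256. Amy2a had a log2 change of -3.93 (SE 0.534, adjusted p = 0.0052). Uninjected replicate 1 was higher than replicate 2 for each enzyme named here, and the probe set of ctrb.1 shares a cluster name with another gene's. The list's medians on the coMO arrays were -1.95 and -1.29, and 4 of 19 genes were called against coMO. Without uninjected replicate 1 the fit called 6 falls of this list, and without uninjected replicate 2 it called 17. Of 27 liver genes 15 fell and 2 rose. The signals of serpina1l, a serum protease inhibitor, were 1799 and 1613 in ERbeta2 MO embryos, 9643 and 8543 in uninjected embryos and 4045 and 6658 in coMO embryos. This gave serpina1l a log2 change of -2.39 (SE 0.251, adjusted p = 0.00348). Shbg, the sex hormone binding globulin, had signals of 25.8 and 60.8 with ERbeta2 MO and of 403 and 258 without injection, beside 161 and 183 with coMO. Shbg fell by 2.28 in log2 terms, with an SE of 0.302 and an adjusted p of 0.00492. Serpinf2a, an inhibitor of plasmin, fell by 2.22 (adjusted p = 0.00845). The rises were both complement components, c6.2 (2.38) and c4b (0.91, adjusted p = 0.0392). Of 19 intestine genes 13 fell and all 19 lay below 0. For vil1, villin of the brush border, the ERbeta2 MO arrays read 13.1 and 55.2, the uninjected arrays 729 and 522 and the coMO arrays 266 and 278. Vil1 had a log2 change of -3.37 (SE 0.325, adjusted p = 0.00348). Fabp6, an ileal bile acid carrier, fell by 3.31 (adjusted p = 0.00556), and agr2, a goblet cell protein, by 1.60 (adjusted p = 0.00622). Without uninjected replicate 1 the fit called 2 intestine falls and 0 liver falls, with 13 and 15 of these genes at an unadjusted p under 0.05.

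Skin, skeleton and glia lost particular genes. Of 38 epidermis and fin fold genes 13 fell, with a list median of -0.41 on ERbeta2 MO replicate 1 and -1.42 on replicate 2. The signals of krt15, a keratin, were 331 and 168 in ERbeta2 MO embryos, 2161 and 1952 in uninjected embryos and 1006 and 1372 in coMO embryos. This gave krt15 a log2 change of -2.95 (SE 0.3, adjusted p = 0.00348). The keratins krt1-19d and krt91 fell by 2.65 and 2.23, and the krt91 probe set shares a cluster name with another gene's. The fit called 33 falls of this list without ERbeta2 MO replicate 1, 13 falls and 3 rises without replicate 2, 1 fall without uninjected replicate 1 and 3 without uninjected replicate 2. Of 45 cartilage, bone and matrix genes 7 fell and 4 rose. Matn1, a cartilage matrix protein, had signals of 1083 and 3698 with ERbeta2 MO and of 9029 and 11497 without injection, beside 13361 and 14727 with coMO. Matn1 fell by 2.33 in log2 terms, with an SE of 0.469 and an adjusted p of 0.0149. The coMO signals of matn1 were above the uninjected ones, and ERbeta2 MO differed from coMO by -2.79 (adjusted p = 0.0347). Col10a1a, a collagen of bone-forming and hypertrophic cells whose probe set shares a cluster name with another gene's, fell by 2.29, and hapln1a fell by 1.29 although its 3 other probe sets were between -0.08 and 0.04. The rises were led by mmp9, timp2b and fn1b, a fibronectin, which rose by 1.49 (adjusted p = 0.0114). Of 17 glia and myelin genes 6 fell and 1 rose. For mbpa, myelin basic protein, the ERbeta2 MO arrays read 46.6 and 169.5, the uninjected arrays 725 and 579.5 and the coMO arrays 436 and 577. Mbpa had a log2 change of -2.44 (SE 0.402, adjusted p = 0.00823). Cd59a, a membrane protein abundant in myelinating glia of zebrafish, fell by 2.52 (adjusted p = 0.00402).

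Among 41 neuron and synapse genes 1 rose and 1 fell (4.88% called), with a list median of -0.26 on ERbeta2 MO replicate 1 and 0.32 on replicate 2. The signals of inaa, an internexin neurofilament, were 53.5 and 85.5 in ERbeta2 MO embryos, 501 and 508 in uninjected embryos and 377 and 336 in coMO embryos. This gave inaa a log2 change of -2.42 (SE 0.226, adjusted p = 0.00348). The rise, elavl3 at 1.70, is uncertain, since its other probe sets were at 0.39, -0.47 and 0.88 and its cluster name is shared. Without ERbeta2 MO replicate 1 the fit called 13 rises and 1 fall in this list, and without replicate 2 it called 1 rise and 13 falls. Skeletal muscle had 7 falls and 1 rise among 46. Tpm1, a tropomyosin, had signals of 1028 and 803 with ERbeta2 MO and of 3077 and 2702 without injection, beside 2756 and 2605 with coMO. Tpm1 fell by 1.63 in log2 terms, with an SE of 0.2 and an adjusted p of 0.00402. For ttn.2, a titin, the ERbeta2 MO arrays read 16898 and 11391, the uninjected arrays 3333 and 5196 and the coMO arrays 10671 and 9720.1. Ttn.2 had a log2 change of 1.73 (SE 0.269, adjusted p = 0.00751). The coMO signals of ttn.2 were also above the uninjected ones. Without ERbeta2 MO replicate 1 the fit called 27 muscle falls and 1 rise (median -0.78), and without replicate 2 it called 4 falls and 5 rises (median -0.18). Limma called 0 muscle genes without uninjected replicate 1, with 10 at an unadjusted p under 0.05, and 2 falls and 1 rise without uninjected replicate 2. Heart genes gave 2 falls among 7, myl7 (-0.84, adjusted p = 0.0343) and gata5, with a list median of 0.22 on replicate 1 and -0.88 on replicate 2. Ionocyte genes, which move salts across the skin, had 5 falls among 8, led by atp1a1a.4, a sodium pump subunit, at -1.43 (adjusted p = 0.00455). Pigment cell genes had 3 falls among 11, led by aqp3a, a water channel also found in skin, at -2.18 (adjusted p = 0.00399). That list's median was 0.17 on ERbeta2 MO replicate 1, -1.15 on replicate 2 and -0.97 and -0.54 on the coMO arrays. Hatching gland and yolk genes had 3 falls among 6, and these were agr2, mttp and apoc2.

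Red blood cell genes were split, with 6 rises and 2 falls among 22. After hbbe3 and slc4a1a the largest rise was alas2, the first enzyme of heme synthesis in red cells. The signals of alas2 were 412 and 623 in ERbeta2 MO embryos, 135 and 159.9 in uninjected embryos and 392 and 348 in coMO embryos. This gave alas2 a log2 change of 1.59 (SE 0.243, adjusted p = 0.00693). CoMO signals of alas2 were also above the uninjected ones. The falls were ca2, a carbonic anhydrase, at -1.34 (adjusted p = 0.00681), and fthl28, a ferritin, at -0.91 (adjusted p = 0.027, cluster name shared). The list's median was 0.12, and it was 0.47 without ERbeta2 MO replicate 2 and 0.05 without replicate 1.

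Some interferon response genes rose, and inflammation and injury genes were split. Of 18 interferon response genes on the array 9 were tested, and 3 of these rose. Isg15, a ubiquitin-like interferon target, had signals of 242 and 197 with ERbeta2 MO and of 34.9 and 46.5 without injection, beside 18.2 and 36.8 with coMO. Isg15 rose by 1.79 in log2 terms, with an SE of 0.261 and an adjusted p of 0.00622. Isg15 reached the mean signal needed for testing only through its ERbeta2 MO signals. For isg20, an interferon-induced exonuclease, the ERbeta2 MO arrays read 863 and 754, the uninjected arrays 247 and 241 and the coMO arrays 238 and 270.3. Isg20 had a log2 change of 1.61 (SE 0.197, adjusted p = 0.00402). Both were also called against coMO, with adjusted p of 0.0155 each. Of 24 inflammation and injury genes 3 rose and 5 fell, with a median of -0.16. The signals of socs3b, a feedback inhibitor of cytokine signalling, were 1104 and 618 in ERbeta2 MO embryos, 236 and 229 in uninjected embryos and 259.7 and 197 in coMO embryos. This gave socs3b a log2 change of 1.70 (SE 0.286, adjusted p = 0.00852). The falls included sod2 and sod1, superoxide dismutases, at -1.82 (adjusted p = 0.00402) and -1.33 (adjusted p = 0.00954), and hp, haptoglobin of the liver, at -1.82 (adjusted p = 0.0222). Limma called 0 genes of either list without uninjected replicate 1, with 3 and 8 at an unadjusted p under 0.05, and without uninjected replicate 2 it called 2 interferon rises and 2 inflammation and injury falls.

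Chaperones had somewhat more falls and fewer rises than the background. Of 73 chaperones and heat shock proteins 11 fell (15.1%, against 10.6% of all genes) and 3 rose (4.11%, against 7.43%). Only the 3 largest falls are named, all of the endoplasmic reticulum, and they do not stand for the rest. Hsp90b1, an endoplasmic reticulum chaperone, had signals of 826 and 1022 with ERbeta2 MO and of 1909 and 2518 without injection, beside 2471 and 2824 with coMO. Hsp90b1 fell by 1.23 in log2 terms, with an SE of 0.218 and an adjusted p of 0.0102. Pdia4, a disulfide isomerase, fell by 1.14 (adjusted p = 0.00795), and calr3b, a calreticulin with a shared cluster name, by 1.22. The rises were dnajc21 (1.04), dnajc5ga (1.03) and dnajb6b (0.78), all of the DnaJ family. Of 72 cytosolic ribosomal proteins 2 rose and 1 fell (4.17%), and of 43 proteasome genes 1 rose, psmd11b at 0.70 (2.33%). The ribosomal genes called were rps27l, rpl38 (0.67, cluster name shared) and rpl22l1, which fell by 0.86 (adjusted p = 0.0349).

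Genes linked to estrogen and steroids had 1 rise and 5 falls among 18 tested of 32. For cyp19a1b, brain aromatase, an estrogen target of radial glia, the ERbeta2 MO arrays read 51.2 and 73.3, the uninjected arrays 53.4 and 78.1 and the coMO arrays 86.6 and 81.4. Its log2 change was -0.05, its groups overlapped, and it was below the signal needed for testing. The rise was igfbp1a. The signals of srd5a2a, a steroid 5-alpha reductase, were 45.5 and 92.9 in ERbeta2 MO embryos, 373 and 374 in uninjected embryos and 222 and 312 in coMO embryos. Srd5a2a had a log2 change of -2.04 (SE 0.28, adjusted p = 0.00522). A second srd5a2a probe set was at -2.90. The falls also included shbg and hsd17b4, which belong to the liver and fatty acid lists as well.

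Of 12 tested lateral line and hair cell genes 2 rose and 1 fell, with a median of -0.03. Pvalb8, a parvalbumin of hair cells, had signals of 511 and 539 with ERbeta2 MO and of 2505 and 2051 without injection, beside 1357 and 1435 with coMO. This gave pvalb8 a log2 change of -2.05 (SE 0.193, adjusted p = 0.00348). Both ERbeta2 MO signals were below both coMO signals, and the difference from coMO was called as well (-1.36, adjusted p = 0.0216). Without uninjected replicate 1 pvalb8 kept an adjusted p of 0.0497. The rises were cxcr4b, given above, and eya1, a factor of placodes and the inner ear, at 0.93 (adjusted p = 0.0371). The coMO signals of eya1, 692 and 426, spanned the ERbeta2 MO signals of 670.1 and 624.

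The authors' deposited table of ratios for this comparison, which lists ratios above 2 or of at most 0.5, was set beside the calls. Of the 2415 probe sets in the authors' deposited table that are not controls, a ratio above 1 was given for 1168 and below 1 for 1247. From the authors' deposited table, 1661 probe sets were called here, which is 68.8% of that table and 77% of the 2156 called probe sets. The calls come from a fit that takes its spread from all 6 arrays. The ratios and the calls share the 4 arrays compared, and the direction of the ratios in the authors' deposited table was set by their match with the signals, so the overlap is no separate result.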

How the data were processed

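Total RNA of whole zebrafish embryos was labelled with biotin and hybridised, per the labels' protocols. In the series table of signals each probe set has 1 intensity on each array, on a linear scale. These were made with MAS5, per the submitters' processing notes, which give no version. MAS5 summarises each array separately and scales it, and the trimmed mean of the deposited intensities was 500.1 on every array, so a shift of all genes together cannot be seen. The authors also deposited a table of ratios (fold values) for this comparison, whose direction was taken from its match with the intensities. The way its replicates were joined is not stated in those notes.

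Intensities were transformed as log2(signal + 32), which understates changes at low signals. Dropped were 115 control probe sets and the 25% with the lowest mean over the 6 arrays. All 6 arrays entered 1 model of 3 groups (limma 3.58.1, lmFit and eBayes with an intensity trend, R 4.3.3), with 3 residual and 5.28 prior degrees of freedom, two-sided tests and Benjamini-Hochberg adjustment over 11626 probe sets. With 2 arrays in each group, exact permutation reaches no p below 0.333. GEO's platform annotation gave 1 gene symbol for 10802 of 15617 probe sets, several for 135 and none for 4680, and probe sets with several were left unnamed. Gene numbers matched 10718 of the probe sets with 1 symbol to the RefSeq gene table of GRCz12tu, and 1 symbol changed. Simulated data had the real means, 200 changed probe sets among 11626 and independent noise of the same size in all groups. There the fit for this comparison recovered 21% of log2 changes of 1 and 89% of changes of 2, with 9 calls without a change. The share changed was far below the 18.5% called in the data, and RNA completeness was not simulated, so these rates need not hold for the real arrays.

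The gene lists and the rule for named genes were chosen with earlier results of these data known. The rule named the 15 that rose most and the 15 that fell most of the called genes whose groups do not overlap, up to 3 called rises and 3 called falls of each list, the 10 largest rises and falls among transcription factors, and esr1, esr2a, esr2b, notch3, cyp19a1b, igfbp1a, igf1, igf2a and igf2b. In all, 15 genes that matched a list through an older symbol or a pattern but belong elsewhere were removed from it. The lists were not tested as sets. Same-numbered arrays were not treated as pairs: the labels give the numbers no shared batch, and the correlations of their deviations were -0.0836, 0.109 and -0.0979 for the pairs of groups. Alternatives were other pseudocounts, filters, scalings and priors, a fit of only the 4 arrays compared, a replicate block, the GAPDH ratio as a covariate and leaving out each array.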

Additional observations from a re-analysis of the deposited data

How the results depend on the processing

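Called probe sets numbered 2156, and pseudocounts of 1 and 100, no filter, other scalings and priors kept that count within 1.5 times. With the GAPDH ratio as a covariate 0 were called (0 higher and 0 lower), with a smallest adjusted p of 0.309 in limma and 1053 at an unadjusted p under 0.05. A minimum log2 change of 1 left 1350, of which 455 were higher, and the 4 arrays alone gave 604 higher. Leaving out 1 array gave 35 to 3150 calls, 4 to 1448 higher and 31 to 1702 lower. With the replicate block 1927 were called, 769 higher and 1158 lower, and only 2 numbers were available to judge the pairing.

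List medians are given first where they moved by more than the spread between arrays. With the GAPDH covariate they became 0.39 for Sox, 0.61 for Hox, -0.02 for T-box, Gata and Hand, 0.19 for Krüppel-like, 0.11 for myogenic factors, -0.75 for glycolysis, -0.37 for sterol and fatty acid synthesis, -0.27 for amino acid supply, -0.17 for fibroblast growth factors, 0.03 for Wnt, 0.14 for TGF-beta, 0.60 for Hedgehog, 0.14 for apoptosis, -1.59 for photoreceptor, -2.38 for exocrine pancreas, -0.66 for liver, -1.02 for intestine, -0.36 for ionocyte, 0.22 for lateral line, -0.40 for glia, -0.68 for hatching gland and 0.27 for ribosomal genes. Shifts of over 0.2 within that spread gave 0.73 for retina and eye factors, 0.17 for aminoacyl tRNA synthetases, -0.62 for skeletal muscle, -0.60 for heart, -1.42 for epidermis and -0.97 for pigment cell genes, and the sign turned, to -0.07 for stress factors, 0.12 for clock, 0.11 for insulin-like growth factor, -0.09 for cell cycle and 0.27 for neuron and synapse genes. With no filter they became 0.21 for Her and Hey, 0.17 for Krüppel-like, -0.92 for glycolysis, -0.67 for xenobiotic, -0.07 for fibroblast growth factors, -0.06 for Wnt, 0.02 for lens, -0.74 for liver, -0.53 for ionocyte, -0.66 for glia and -0.60 for hatching gland genes. With the lowest 50% filtered they became -1.07 for xenobiotic, 0.11 for fibroblast growth factors, 0.24 for Wnt, 0.64 for Hedgehog, 0.27 for apoptosis, -0.28 for lateral line, -0.67 for hatching gland and 0.15 for all growth genes. Counting every probe set gave 0.09 for nuclear receptors, -0.10 for fibroblast growth factors, -0.05 for Wnt, -0.02 for TGF-beta, 0.46 for Notch, -0.05 for apoptosis and -0.02 for all growth genes. A pseudocount of 100 gave -1.0 for glycolysis, -0.59 for xenobiotic, -0.89 for liver and -1.14 for intestine, and one of 1 gave -1.12 for xenobiotic and -2.03 for intestine genes. Quantile normalization gave 0.02 for T-box, Gata and Hand and -0.72 for xenobiotic genes, and median centring 0.07 for ribosomal genes. The cause of these shifts was not tested.

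Leaving out 1 array moved the medians from 0.22 to 0.45 for proneural, 0.17 to 0.47 for Her and Hey, 0.02 to 0.20 for T-box, Gata and Hand, 0.12 to 0.20 for nuclear receptors, -1.12 to -0.96 for glycolysis, -1.25 to -0.91 for fatty acid oxidation, -0.11 to -0.03 for amino acid supply, -1.01 to -0.74 for xenobiotic, -0.05 to 0.11 for fibroblast growth factors, -0.08 to 0.12 for TGF-beta, 0.05 to 0.21 for apoptosis, 0.05 to 0.47 for red blood cell, -0.09 to 0.18 for lateral line, 0.27 to 0.75 for interferon, -0.44 to -0.05 for inflammation and 0.02 to 0.12 for all growth genes. Within the spread between arrays, the median also turned sign without ERbeta2 MO replicate 1 for stress (-0.14), clock (0.06), insulin-like growth factor (0.12), vascular (0.04), cell cycle (-0.11) and neuron genes (0.32), and without replicate 2 for heart (0.22) and pigment cell genes (0.17).

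Limits are the 2 arrays a group, low signals with no detection calls, pools of embryos of unstated size, and RNA completeness that moved with the groups.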
